A study of Rattus norvegicus with 9 samples.

Results

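The miR-143/145 cluster was followed in rat serum through its 4 mature arms, miR-143-3p, miR-143-5p, miR-145-5p and miR-145-3p. The arms were taken by name, after removal of the species prefix, from a table of 567 miRNAs, and all 4 were found there. All 4 were also among the 294 miRNAs with enough counts to be tested.

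Both hairpins are cut from a single primary transcript. In mouse the cluster is abundant in smooth muscle of vessels and hollow organs, where serum response factor with its partner myocardin drives it, and it is known for favouring the contractile over the dividing state of these cells. Drosha and Dicer release a short duplex from each hairpin, and Argonaute usually keeps a single strand, so each hairpin has a leading and a minor arm. In serum, miRNAs travel bound to proteins or inside vesicles and come from many tissues. The counts therefore do not say which cells released them, and fewer releasing cells cannot be told apart from less release per cell.

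The sequences below give the mature strands of each hairpin and show that the arms do not share a target-pairing region. They are RefSeq sequences of the GRCr8 build, in which all 4 arms were matched by name, and they are printed 5′ to 3′ with the seed, bases 2 to 8, in capitals.
miR-143-3p: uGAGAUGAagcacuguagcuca
miR-143-5p: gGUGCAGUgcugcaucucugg
miR-145-5p: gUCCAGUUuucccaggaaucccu
miR-145-3p: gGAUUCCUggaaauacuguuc
The 4 seeds differ from each other, and 0 of the other mature rat miRNAs among the 693 in that RefSeq table carry any of them. The arms are 21 to 23 bases long, so their counts were compared without division by length.

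The hairpins are shown whole, with both mature arms in capitals, because the arm ratios below set these stretches against each other.
Mir143: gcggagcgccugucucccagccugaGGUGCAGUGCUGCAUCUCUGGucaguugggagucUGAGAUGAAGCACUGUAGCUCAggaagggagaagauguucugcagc
Mir145: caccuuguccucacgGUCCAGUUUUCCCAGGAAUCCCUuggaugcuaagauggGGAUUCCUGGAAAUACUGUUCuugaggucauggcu
In GRCr8, Mir143 lies at chr18:57371349-57371453 and Mir145 at chr18:57369983-57370070, both on the minus strand with 1278 bases between them. The long non-coding RNA gene Carmn spans both. The 5′ arm comes first in each hairpin, so the leading arm in serum was the downstream one of Mir143 and the upstream one of Mir145.

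Small RNA was sequenced from serum of adult male Wistar rats, wild type by their label, in 9 libraries of 3 groups with 3 libraries each. Control animals formed the first group, and their own injections, if any, are not given, since the labels name the same rotenone treatment for every sample. Early Parkinson's disease (EPD) animals received rotenone, an inhibitor of mitochondrial complex I, intraperitoneally each day, at a dose of 2 mg per kg, over 10 days, and late Parkinson's disease (LPD) animals for more than 40 days, to a stage called terminal. The model is systemic poisoning of a whole animal, and the serum was not separated by source.

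Library totals were 1108167 to 1539557 counts in Control, 1136537 to 1668807 in EPD and 132609 to 305019 in LPD. The LPD libraries also held few miRNAs with 1 to 9 counts (3 to 39, against 127 to 155 in EPD and 150 to 157 in Control). From the number of miRNAs without counts, 12.3 to 49.1 counts were estimated to stand for each sequenced molecule in LPD, against 1.92 to 2.83 in EPD and 1.07 to 3.09 in Control. The estimate assumes that LPD serum had the profile of the other groups and that no low counts were removed. The lowest count above 0 was 1 in every library, and removal of low counts before deposit was not tested. Control 2 stood apart by the hepatocyte miRNA miR-122-5p, at 662182 against 22284 and 45708 CPM (counts per 1e6 scaled counts of the library) in the other controls. Results that rest on Control 2 are given without it as well. CPM values are scaled by the trimmed mean of M values (TMM), a factor that was 0.669 for Control 2 and 0.877 to 1.14 for the others.

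miR-143-3p was by far the most abundant arm and among the most abundant miRNAs of rat serum. It ranked between 6 and 9 among 567 miRNAs in the Control libraries, 9 and 16 in EPD, and 5 and 7 in LPD. It made up 88.3 to 94.96% of the cluster's counts in Control, 88.7 to 91.0% in EPD and 96.3 to 99.4% in LPD. miR-145-5p, the leading arm of the other hairpin, ranked between 36 and 68 in Control, 49 and 52 in EPD, and 56 and 124 in LPD. The minor arms were scarce, with at most 271 counts of miR-143-5p (in Control 2) and 143 of miR-145-3p (in EPD 3).

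**Figure D1:**
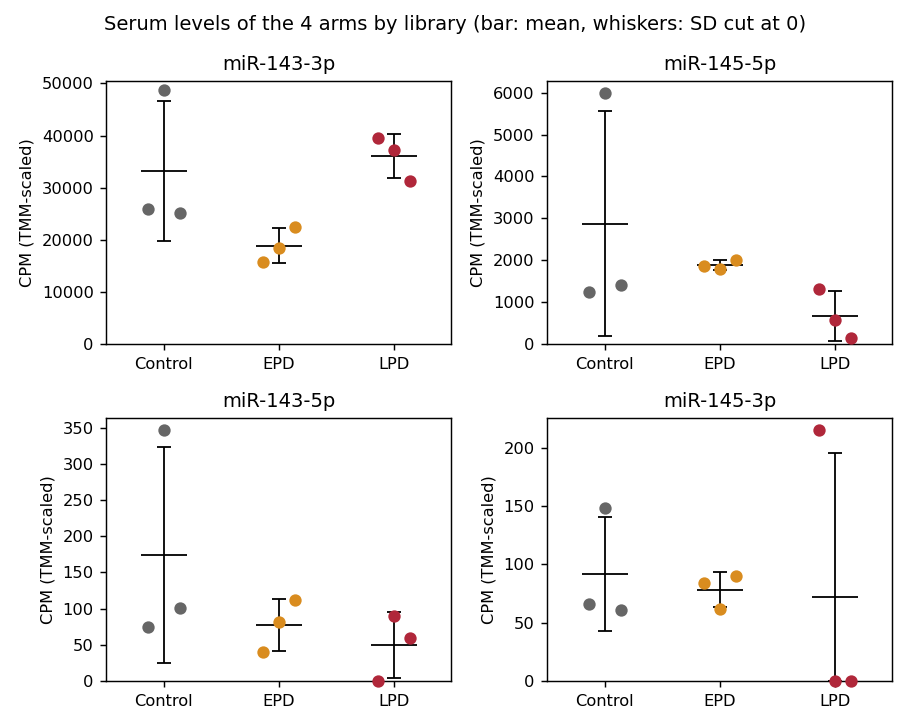
TMM-scaled CPM of each arm (vertical axes, linear from 0) in Control, EPD and LPD, with a point for each library, a horizontal bar at the mean and whiskers of 1 SD cut at 0. miR-143-3p is lowest in the EPD libraries (15670 to 22428 CPM), miR-145-5p is lowest in LPD 3 (138 CPM), and Control 2 is the highest control for every arm.

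After 10 days of rotenone, miR-143-3p, the leading strand of its hairpin, was lower in every EPD library than in any control, but did not pass the test. It stood at 15670, 18540 and 22428 CPM in EPD, against 25929, 48790 and 25125 CPM in Control. The groups did not overlap, though the highest EPD library lay close under the lowest control. The mean was 18879 ± 3391 CPM in EPD and 33281 ± 13437 CPM in Control (SD, n = 3 each), a log2 fold change of -0.82 (SE 0.31). Its adjusted p was 0.995 by edgeR's quasi-likelihood test over 294 miRNAs (range over the alternatives 0.332 to 0.999). In this comparison 0 of the 4 arms and 0% of all tested miRNAs were called (11 at an unadjusted p under 0.05, 1 miRNA called by DESeq2 and 0 by limma-voom). CPM of the groups did not overlap for 12.9% of all tested miRNAs and for 1 of the 4 arms. Without Control 2 the fold change of miR-143-3p shrank to -0.32.

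miR-145-5p showed no such order at 10 days. It had 1865, 1795 and 2019 CPM in EPD, against 1235, 5981 and 1411 CPM in Control. The 3 EPD libraries were close to each other and lay between Control 2 and the other controls. Its log2 fold change of -0.60 (SE 0.79, adjusted p = 0.995 by edgeR) turned to 0.63 without Control 2. The minor arms had 39.6, 80.9 and 111 CPM of miR-143-5p in EPD against 74.9, 346 and 100.4 CPM in Control, and 84.0, 61.6 and 89.8 CPM of miR-145-3p in EPD against 66.0, 148 and 61.2 CPM in Control. Both minor arms overlapped between these groups, with log2 fold changes of -1.17 (SE 1.25) and -0.22 (SE 1.50). Without Control 2 these stood at -0.09 for miR-143-5p and 0.42 for miR-145-3p.

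After more than 40 days, miR-143-3p was higher than at 10 days. It had 39539, 37153 and 31382 CPM in LPD, against 15670, 18540 and 22428 CPM in EPD. Each LPD library lay above each EPD library. miR-143-3p rose to 36025 ± 4194 CPM in LPD, against 18879 ± 3391 CPM in EPD (SD, n = 3 each), a 1.91-fold difference with a log2 fold change of 0.93 (SE 0.31, adjusted p = 0.0415 by edgeR). It was the only called arm. Of all tested miRNAs 36.7% were called, 4.08% higher and 32.7% lower in LPD than in EPD. CPM of these groups did not overlap for 52.4% of all tested miRNAs and for 2 of the 4 arms, miR-143-3p and miR-145-5p.

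This call lay near the threshold. It was lost without Control 1 (adjusted p = 0.0605), Control 3 (0.0594), EPD 1 (0.133), EPD 2 (0.131), EPD 3 (0.0634), LPD 1 (0.0824) or LPD 2 (0.123), without the filter on low counts (0.0617) and on counts per estimated molecule (0.131), all by edgeR. The log2 fold change stayed between 0.82 and 1.27 in all alternatives.

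Against Control, miR-143-3p in LPD was not told apart by scaled level. LPD had 39539, 37153 and 31382 CPM, and Control 25929, 48790 and 25125 CPM. The LPD libraries lay above 2 controls and below Control 2, with a log2 fold change of 0.11 (SE 0.31, adjusted p = 0.789 by edgeR). It stood at 0.67 without Control 2 (adjusted p = 0.0796), at -0.06 without Control 1 and at -0.08 without Control 3. In this comparison 37.1% of all tested miRNAs were called, 4.42% higher and 32.7% lower, and 0 of the 4 arms. CPM did not overlap for 48.3% of all tested miRNAs and for 0 of the 4 arms.

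The unscaled share of miR-143-3p separated the 3 groups. It took 2.87, 3.26 and 2.83% of the counts in Control, 1.37, 2.12 and 2.23% in EPD, and 3.91, 3.93 and 3.59% in LPD. The lowest LPD share had a Wilson interval at 95% of 3.49 to 3.69%, and the highest Control share had one of 3.23 to 3.29%. Such intervals take each count as an independent molecule, which PCR copies are not. In LPD 3 an estimated 12.3 counts stood for each molecule, and if that estimate holds, its interval is too narrow. The intervals therefore do not decide whether these 2 shares differ. Shares did not overlap for 43.9% of all tested miRNAs between LPD and Control, 51.7% between LPD and EPD, and 10.5% between EPD and Control. With library totals in place of TMM, the log2 fold change of LPD against Control was 0.35 (adjusted p = 0.369 by edgeR). Whether miR-143-3p overlapped between LPD and Control thus depended on the scaling, since the factor of 0.669 lifts the CPM of Control 2. The unscaled share has a limit there too. Control 2 held miR-122-5p at 662182 CPM, against 22284 and 45708 CPM in the other controls. Such a large part of the total lowers the share of every other miRNA in Control 2. Shares with miR-122-5p left out of the total were not computed.

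**Figure D2:**
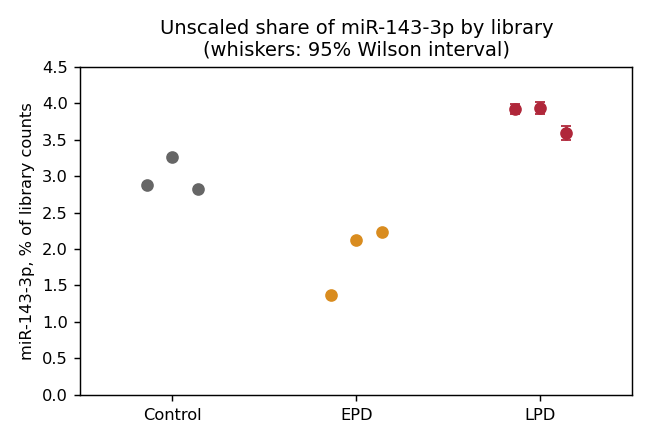
Share of all counts of a library taken by miR-143-3p (vertical axis, percent from 0) in Control, EPD and LPD, with a point for each library and whiskers for the Wilson interval at 95%. EPD shares end at 2.23%, Control shares lie between 2.83 and 3.26%, and LPD shares start at 3.59%.

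miR-145-5p had low values in LPD. This arm, which in cultured smooth muscle is known to repress KLF4 and KLF5, had 1305, 580 and 138 CPM in LPD, against 1865, 1795 and 2019 CPM in EPD. All LPD libraries lay below all EPD libraries, and they differed among themselves far more than the EPD libraries did. The mean was 675 ± 589 CPM in LPD and 1893 ± 114 CPM in EPD (SD, n = 3 each), with a log2 fold change of -1.48 (SE 0.81, adjusted p = 0.202 by edgeR). This value was -0.93 without LPD 3 and -2.17 without LPD 1. Against Control, at 1235, 5981 and 1411 CPM, the log2 fold change was -2.08 (SE 0.82, adjusted p = 0.0801, unadjusted p = 0.0324). LPD 1 lay above Control 1, so these groups overlapped, and without Control 2 the value was -0.80 (adjusted p = 0.450). miR-145-5p passed in 0 of the 17 alternatives of either comparison, with adjusted p of 0.0537 to 0.450 against Control and 0.0904 to 0.319 against EPD.

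Few counts stood behind these LPD values. miR-145-5p had 394, 129 and 21 counts in LPD 1, LPD 2 and LPD 3, which correspond to an estimated 10.7, 2.63 and 1.70 molecules. miR-143-3p had 11937, 8258 and 4760 counts there, or an estimated 325, 168 and 386 molecules. In EPD and Control the same estimate gave 1137 to 1950 molecules of miR-145-5p and 9904 to 34719 of miR-143-3p. The level of miR-143-3p in LPD thus rests on at least 168 estimated molecules a library and that of miR-145-5p on at most 10.7.

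The ratio of the leading arms compares miR-143-3p with miR-145-5p inside a library and needs no scaling between libraries. miR-143-3p counts exceeded miR-145-5p counts 21.0, 8.16 and 17.8 times in Control, 8.40, 10.3 and 11.1 times in EPD, and 30.3, 64.0 and 227 times in LPD. Every LPD library lay above the other 6, EPD was tight, and Control 2 was the lowest of all 9, just under EPD 1. The mean log2 ratio was 3.86 ± 0.73 in Control, 3.30 ± 0.21 in EPD and 6.23 ± 1.45 in LPD (SD, n = 3 each). Over the 3 groups it differed, with an exact permutation p of 0.0143 (adjusted over 3 ratios 0.0429), and the groups accounted for 73.1% of the sum of squares.

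Pair by pair, the log2 ratio was 2.93 higher in LPD than in EPD and 2.38 higher in LPD than in Control, which are 7.63-fold and 5.20-fold differences. It was 0.55 lower in EPD than in Control (difference -0.55), where the groups overlapped. The exact two-sided permutation p was 0.1 for both LPD comparisons (adjusted over 9 tests 0.225) and 0.4 for EPD (adjusted 0.72), and 0.1 is the smallest p that 3 libraries against 3 can give. Without LPD 3 the difference was 2.15 against EPD and 1.60 against Control. Without Control 2 it was 1.96 for LPD against Control and -0.97 for EPD against Control. The overlap of EPD with Control came from Control 2 alone, since every EPD library lay below both other controls. The test over 3 groups was lost without any of Control 1 (adjusted p = 0.182), Control 2 (0.118), Control 3 (0.182), EPD 1 (0.150), EPD 2 (0.150), EPD 3 (0.150) or LPD 3 (0.0589), each by exact permutation.

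**Figure D3:**
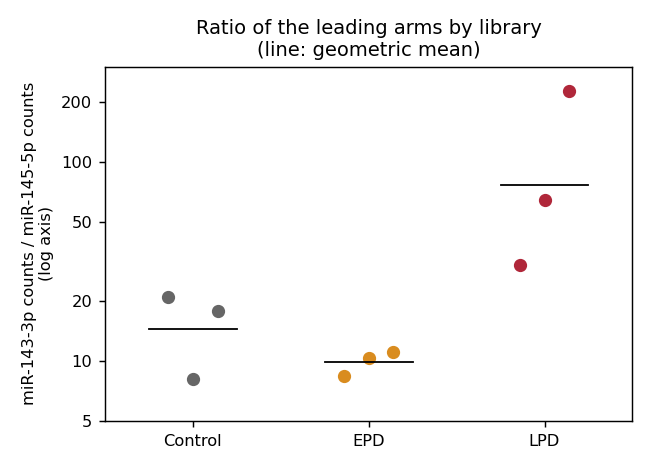
Counts of miR-143-3p divided by counts of miR-145-5p (vertical axis, logarithmic) in Control, EPD and LPD, with a point for each library and a line at the geometric mean. Control and EPD libraries lie between 8.16 and 21.0, and LPD libraries lie at 30.3, 64.0 and 227.

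Shifts of this kind were common in the LPD libraries. As a background, the leading arms of 85 pairs of hairpins on the same strand within 10 kb of each other were set against each other in the same way, the more abundant over the less abundant. The groups did not overlap for 37.6% of these ratios between LPD and Control, 36.5% between LPD and EPD, and 15.3% between EPD and Control. Among the 29 pairs with counts of both miRNAs in all 9 libraries, 44.8% did not overlap in either LPD comparison. In absolute size, the miR-143-3p to miR-145-5p difference came at rank 2 of these 29 in both LPD comparisons, and at rank 24 (against Control) and 17 (against EPD) of all 85. The pairs share the same libraries, and a mature miRNA made from several hairpins enters more than once, so these ranks are a description.

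**Figure D4:**
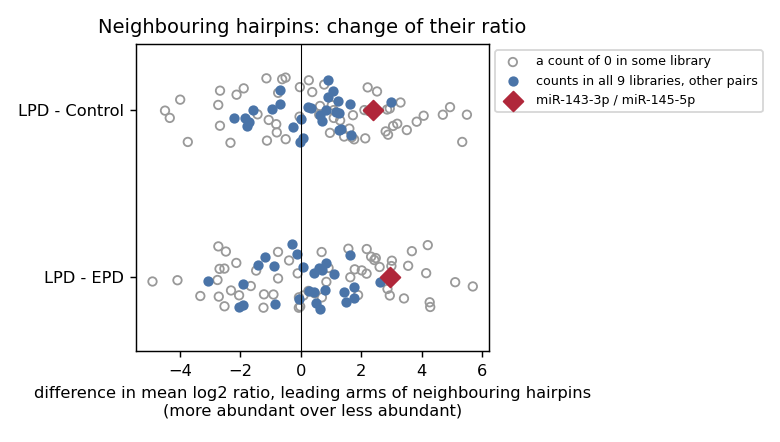
Difference in mean log2 ratio between LPD and Control (upper row) and between LPD and EPD (lower row) for the leading arms of 85 pairs of neighbouring hairpins, with filled points for pairs counted in all 9 libraries, open points for pairs with a count of 0 somewhere and vertical scatter without meaning. The red diamond, miR-143-3p over miR-145-5p, lies at 2.38 and 2.93, inside the range of the open points.

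The miR-143 hairpin kept a strong preference for its 3p arm in all 9 libraries. miR-143-5p, the minor arm, made up 0.288, 0.705 and 0.398% of the 2 arms' counts in Control and 0.252, 0.434 and 0.493% in EPD. In LPD 2 and LPD 3 it made up 0.242% (Wilson interval 0.156 to 0.373%) and 0.189% (0.0993 to 0.358%). LPD 1 had 0 counts of miR-143-5p beside 11937 of miR-143-3p, which allows a share of up to 0.0251% by counting error alone. That limit takes each count as a molecule. With an estimated 325 molecules of miR-143-3p it would be wider, so 0 counts in LPD 1 do not tell a share like that of Control from a lower one. The LPD shares lay below all other libraries, and the closest, EPD 1 (interval 0.195 to 0.326%), overlapped LPD 2 in its interval.

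The log2 ratio of miR-143-3p to miR-143-5p was 2.69 higher in LPD than in EPD and 2.88 higher in LPD than in Control (exact permutation p = 0.1 each, adjusted 0.225). These sizes rest on the added count of 0.5 in LPD 1. With an added count of 3 they were 1.70 and 1.88, without LPD 1 0.78 and 0.97, and on counts per estimated molecule 0.57 and 0.75. Over 3 groups the exact permutation p was 0.0393 (adjusted 0.0589). Without LPD 2 it passed (adjusted 0.0429). The 20 and 9 counts of miR-143-5p in LPD 2 and LPD 3 correspond to less than 1 estimated molecule each (0.408 and 0.730), so the molecule estimate is coarse at this level. In scaled level miR-143-5p had 0, 90.0 and 59.3 CPM in LPD. Its log2 fold changes were -0.65 against EPD (SE 1.27, adjusted p = 0.734) and -1.82 against Control (SE 1.30, adjusted p = 0.322), by edgeR. Without LPD 1 they stood at 0.12 and -0.98, without LPD 2 at -1.61 and -2.71, and without Control 2 the value against Control was -0.59.

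The miR-145 hairpin was less one-sided, and its 5p arm led in every library. miR-145-3p made up 5.07, 2.42 and 4.16% of the counts of both arms in Control and 4.31, 3.32 and 4.26% in EPD, with Control 2 the lowest of these. In LPD 1 it made up 14.2% (Wilson interval 11.3 to 17.6%), from 65 counts beside 394. LPD 2 and LPD 3 had 0 counts of miR-145-3p beside 129 and 21 of miR-145-5p, which allow shares of up to 2.33 and 14.3%. These limits take each count as a molecule. With an estimated 2.63 and 1.70 molecules of miR-145-5p, a share like that of Control was not detectable in LPD 2 or LPD 3. The log2 ratio of miR-145-5p to miR-145-3p differed by 0.74 between LPD and EPD and by 0.65 between LPD and Control (exact permutation p = 0.7 each). With an added count of 3 in place of 0.5 these differences turned to -0.90 and -0.99, and without LPD 2 to -0.59 and -0.68. Over 3 groups the exact permutation p was 0.814, and without LPD 1 the adjusted p was 0.0482. That last value rests on the added count of 0.5, since LPD 2 and LPD 3 both had 0 counts of miR-145-3p.

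The level of miR-145-3p in LPD rested on LPD 1 alone. It had 215, 0 and 0 CPM in LPD, against 84.0, 61.6 and 89.8 CPM in EPD and 66.0, 148 and 61.2 CPM in Control. LPD 1 was the highest of all 9 libraries and the other LPD libraries were the lowest. The log2 fold changes were -0.09 against EPD (SE 1.51) and -0.32 against Control (SE 1.51), far inside their errors. Leaving out LPD 1 left a group with 0 counts. The 65 counts of LPD 1 correspond to an estimated 1.77 molecules. In LPD 2 and LPD 3 a single estimated molecule stands for 221 and 81.3 CPM, while miR-145-3p had 61.2 to 148 CPM in the EPD and Control libraries.

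**Figure D5:**
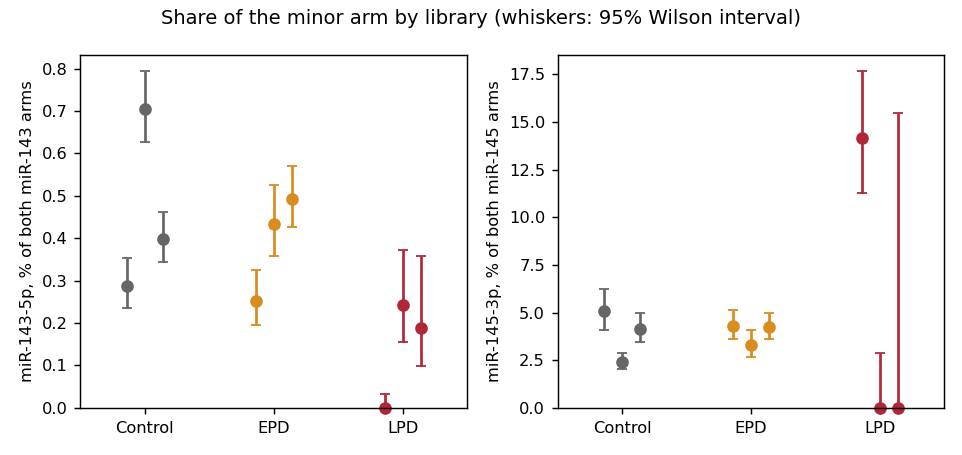
Minor arm as a percentage of both arms' counts for miR-143 (left) and miR-145 (right) in Control, EPD and LPD, with a point for each library and whiskers for the Wilson interval at 95%. The miR-143-5p share is 0 in LPD 1 and below 0.25% in the other LPD libraries, while the miR-145-3p share in LPD spans 0 to 14.2%.

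Among hairpins with both arms tested, missing minor arms were the rule in LPD. Of 69 hairpins with both arms tested, 60 had 0 counts of the minor arm in at least 1 LPD library, against 1 in at least 1 EPD library and 1 in at least 1 Control library. In 27 of the 69 the minor arm had 0 counts in all LPD libraries. The 69 were taken from 197 hairpins with both arms in the table by the filter on low counts. An arm could pass that filter on its EPD and Control counts alone. Few zeros there and many in LPD thus follow in part from this selection. Arm ratios did not overlap between the groups for 33.3% of these hairpins in LPD against Control, 33.3% in LPD against EPD, and 17.4% in EPD against Control. Of the cluster, the miR-143 arm ratio did not overlap in either LPD comparison and the miR-145 arm ratio overlapped in all 3 comparisons.

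The profile of miR-143-3p over the 9 libraries was nearest to those of miR-30a-5p, miR-125a-5p and miR-3473. Likeness was the root mean square difference of log2 CPM, each centred on its own mean, and was 0.32, 0.39 and 0.40 for these, against a median of 0.90 over 122 candidates. miR-30a-5p averaged 5706 CPM in Control, 4394 in EPD and 5200 in LPD, low in EPD as miR-143-3p was. The others shared this less. miR-125a-5p averaged 7703, 6201 and 6949 CPM in the same order, but EPD 3 (8524) lay above Control 1 (6362) and Control 3 (5221). miR-3473 was nearly level between Control (491 CPM) and EPD (481 CPM), with 717 CPM in LPD. miR-145-5p, from the same transcript, came at rank 98 of the 122 with a difference of 1.496. Seen from miR-145-5p, the same difference put miR-143-3p at rank 60 of 122, near the median there. Nearest to miR-145-5p were miR-185-5p (0.69), miR-676 (0.72) and miR-339-5p (0.74), against a median of 1.499. All 3 had their lowest value in LPD 3, at 98.9, 39.6 and 145 CPM, the library in which miR-145-5p stood at 138 CPM.

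Other miRNAs of vessel wall, smooth muscle, endothelium and fibroblasts were read from a list of 26, of which 25 were tested. In LPD against EPD 1 was called higher and 8 lower, with a median log2 fold change of -0.61, beside -0.92 over all tested miRNAs. In LPD against Control 1 was called higher and 9 lower, with a median of -1.30 beside -1.04. In EPD against Control 0 were called, with a median of -0.38 beside -0.05. These shares are near those of the whole table, and miR-1-3p, miR-133a-3p and miR-133b-3p also stand among the striated muscle miRNAs below. miR-126a-3p and miR-24-3p also stand among the platelet miRNAs.

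The list thus held miRNAs that moved in opposite directions. The endothelial miR-126a-5p rose to 10889 ± 2447 CPM in LPD, against 2921 ± 473 in EPD (log2 fold change 1.90, SE 0.33, adjusted p = 0.00576 by edgeR, n = 3 each). miR-125b-5p, which is widespread in mesenchymal cells, fell to 2179 ± 398 CPM in LPD, against 12622 ± 1392 in EPD (-2.53, SE 0.25, adjusted p = 7.91e-04). miR-29a-3p and miR-29b-3p, known to repress collagens, fell as well (log2 fold changes -2.40 and -2.56, SE 0.42 and 0.55, adjusted p = 0.00576 and 0.00791 by edgeR). miR-27b-3p fell by 0.90 (SE 0.21, adjusted p = 0.00936), a call lost without EPD 1 (0.0710), LPD 1 (0.10) or LPD 3 (0.0526), with library totals (0.0622), with only these 2 groups fitted (0.0939) and when each miRNA needed counts in every library (0.107). Against Control, miR-126a-5p rose (log2 fold change 1.52, SE 0.32), and miR-125b-5p (-2.64, SE 0.25), miR-152-3p (-1.97, SE 0.33), miR-199a-3p (-1.80, SE 0.33) and miR-29a-3p (-1.83, SE 0.41) fell, all called by edgeR.

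Markers of other sources differed between libraries beside the cluster. The summed level of 6 red cell miRNAs was 85768 to 170897 CPM in Control, 154708 to 398549 in EPD and 236481 to 373724 in LPD, with none at 0. Its first member, miR-451-5p, was a small part of this sum. It had 616, 466 and 799 CPM in Control, 2916, 787 and 414 in EPD, and 1126, 756 and 1530 in LPD, so all groups overlapped. The summed level of 4 platelet miRNAs was 69442 to 120940 CPM in Control, 107128 to 199198 in EPD and 60457 to 100097 in LPD. That of 5 hepatocyte miRNAs was 29555 to 697423 CPM in Control, the upper end being Control 2, 21048 to 56426 in EPD and 21543 to 47027 in LPD, where miR-802-5p was at 0. That of 6 striated muscle miRNAs was 1436 to 7726 CPM in Control, 338 to 4974 in EPD and 715 to 10819 in LPD, where miR-133b-3p and miR-208a-3p were at 0. Of these lists 6 red cell, 4 platelet, 5 hepatocyte and 5 striated muscle miRNAs were tested. In LPD against EPD 1 miRNA of each of these 4 lists was called lower and 0 higher. Over all tested miRNAs 32.7% were called lower and 4.08% higher there. In LPD against Control 1 red cell miRNA and 1 platelet miRNA were called higher, beside 4.42% of all tested miRNAs. There 1 platelet, 1 hepatocyte and 1 striated muscle miRNA were called lower, beside 32.7%. In EPD against Control 0 were called, as over all tested miRNAs. With so few miRNAs tested, these calls do not set the lists apart from the whole table. The part of these sources in the values of miR-143 and miR-145 was not tested.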

How the data were processed

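The values are whole-number counts per mature miRNA, deposited by the authors for 9 serum libraries, and 0 values differed between the matrix and the single-library files. Per the labels' protocols, a miRNeasy kit gave the RNA and a QIAseq miRNA kit the libraries. The submitters' processing notes name mRatBN7.2 as the build. How reads were aligned and counted, and whether molecular identifiers were used, is not given in the sources used here. Groups and replicate numbers came from the titles. Nothing ties libraries to separate animals beyond separate titles, so the spread behind each p-value is that between these samples and may be technical.

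miRNAs were kept with filterByExpr (at least 10 counts, at least 15 in total), scaled by TMM and fitted over all 3 groups with edgeR 4.0.16 (robust quasi-likelihood, Benjamini-Hochberg adjustment, threshold 0.05) in R 4.3.3. The fit was tested on simulated data. Log2 ratios of counts used an added count of 0.5 and exact permutation tests in Python 3.11.15. Alternatives used DESeq2 1.42.0 and limma 3.58.1. A count of 0 was read as up to 3 counts. Counts per molecule were estimated by matching the number of miRNAs without counts to the mean profile of the Control and EPD libraries, assuming LPD serum had that profile. The arms were given by name. Beside them, the text names the 3 miRNAs nearest to each leading arm in log2 CPM (mean of at least 50 CPM, counts in all 9 libraries). It names up to 4 called vessel wall miRNAs per comparison and direction, smallest p first. Of the other lists it names the first red cell, hepatocyte and striated muscle miRNA, members at 0 in all LPD libraries, and members shared with the vessel wall list. The members and lists were chosen with earlier results of these data known. Only names, neighbours and sequences were taken from GRCr8.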

Additional observations from a re-analysis of the deposited data

How the results depend on the processing

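Of the 17 alternatives for edgeR results, 3 moved the number of called miRNAs by over 1.5 times in each LPD comparison. LPD against Control gave 109 calls, but 38 when a miRNA needed counts in every library, 52 with 2 groups fitted and 35 on counts per estimated molecule. LPD against EPD gave 108, but 35, 67 and 43. EPD against Control gave 0, but 1 with DESeq2, 1 when a miRNA needed counts in every library, and 0 to 1 when a library was left out. LPD against EPD split into 12 higher and 96 lower, into 31 and 91 with DESeq2, and into 17 and 18 when a miRNA needed counts in every library, where LPD against Control split into 16 and 22 in place of 13 and 96. The median log2 fold change over all tested miRNAs was -0.92 (LPD against EPD) and -1.04 (LPD against Control) with TMM, -0.64 and -0.83 with DESeq2, -1.61 and -1.74 with limma-voom, and 0.22 and 0.04 when a miRNA needed counts in every library. Beside these medians miR-143-3p in LPD against EPD stood at 0.93, 1.24, 0.95 and 1.27.

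The miR-143-3p difference between LPD and EPD was no longer called without the low-count filter (0.90), under the replicate block (0.93, adjusted p = 0.0619 by edgeR), or on counts per estimated molecule (0.82), and ranged from 0.85 to 1.16 when a library was left out. Values near 0 turned with single libraries: miR-143-3p in LPD against Control ranged from -0.082 to 0.67, miR-143-5p in LPD against EPD from -1.61 to 0.12, and miR-145-5p in EPD against Control from -0.91 to 0.63. miR-145-3p ranged from -9.55 to 0.33 in LPD against Control and from -9.42 to 0.47 in LPD against EPD, where the low ends are fitted values against a group at 0 counts (adjusted p = 0.0123 and 0.0114 by edgeR) and no measured folds. It ranged from -0.40 to 0.42 in EPD against Control, stood there at 0.023 with limma-voom, and was 0.19 in LPD against EPD with DESeq2, which gave it no adjusted p.

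For the ratios, the 3-group test of miR-143-3p to miR-145-5p was lost with the replicate block (share of the sum of squares 0.73, adjusted p = 0.125, exact permutation) and ranged from 0.69 to 0.86 when a library was left out. That of the miR-143 arms ranged from 0.36 to 0.56 and that of the miR-145 arms from 0.041 to 0.61. On counts per estimated molecule the share for the miR-145 arms stood at 0.91 and the test passed (adjusted p = 0.0429, exact permutation). Depth largely set that outcome, so it does not bear on the arms. LPD 2 and LPD 3 had an estimated 2.63 and 1.70 molecules of miR-145-5p beside 0 counts of miR-145-3p. With 0.5 added, so few molecules cap their ratio below that of every Control and EPD library. The same limit holds for the molecule-based differences that follow. The miR-145 arm ratio turned to -0.99 with an added count of 3 and to -2.23 on counts per estimated molecule in LPD against Control, and to -0.90 and -2.14 in LPD against EPD, with ranges of -0.68 to 2.03 and -0.59 to 2.12 when a library was left out. In EPD against Control the arm ratios ranged from -0.16 to 0.48 for miR-143 and from -0.32 to 0.23 for miR-145. The cause was not tested. Same-numbered libraries did not deviate together (correlations from -0.089 to 0.063), so the block compares libraries that share only a number. Among the arms, the ratios and the vessel wall miRNAs with a fold change given above, the block changed no other call. Over all tested miRNAs it gave 101 calls in LPD against Control and 101 in LPD against EPD, in place of 109 and 108. Counts per estimated molecule were chosen after seeing the data. The estimate assumes that LPD serum had the Control and EPD profile and that low counts were not filtered. If it holds, the LPD libraries hold too few molecules to place the minor arms.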
